A study of Mus musculus with 61 samples.

Results

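Cytosolic ribosomal protein genes of mouse skeletal muscle were followed across 8 inbred strains. They were the rows of the gene count table whose symbol is Rpl or Rps followed by a number and, where present, a short suffix, 80 rows of the 19462 in the table. Of these, 47 carry large-subunit names (Rpl) and 33 small-subunit names (Rps). GENCODE release M21 annotates 78 of them as protein-coding, Rps3a2 as a processed pseudogene and Rps4l as a transcribed processed pseudogene. The filter on low counts kept 79, and Rpl39l, a paralog of Rpl39, was at most 0.296 on the counts-per-million (CPM) scale in any library and was not tested. Many mouse ribosomal protein genes have near-identical copies elsewhere in the genome, each with a row of its own, so each gene was described in 3 ways. The deposited row was taken alone, then summed with rows whose name is the gene's symbol followed by -ps. Last, every other row outside the 80 whose reference transcript is near-identical was added too, predicted genes (Gm) included.

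The ribosome is built of a small subunit, which reads the messenger RNA, and a large subunit, which joins amino acids. Each subunit holds ribosomal RNA and a fixed set of proteins, most of them present once per ribosome. Messenger RNAs of ribosomal proteins carry a 5′ terminal oligopyrimidine (TOP) tract, through which the TOR kinase pathway controls their translation, and muscle has its own form of one subunit protein, RPL3L. Ribosomal protein genes are also among the most frequent sources of processed pseudogenes, intronless copies made by reverse transcription of a messenger RNA.

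RNA of skeletal muscle had been sequenced from 61 libraries of the strains labelled 129, AJ, B6, NZO and WSB (8 libraries each) and NOD, Cast and PWK (7 each), the founders of the Diversity Outbred population. All mice had the same high-fat, high-sugar diet, labelled as 45 percent fat, and no strain served as a control, so each was set against the mean of the other 7. Cast, PWK and WSB descend from wild mice. No transgene or drug was labelled, and age and sex were not given. The labels do not tie each library to an animal of its own, so p-values here reflect variation between libraries, which may in part be technical.

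Total counts per library ran from 17.1 M (megacounts) to 65.2 M, with a median of 33.7 M. The 8 skeletal muscle markers summed to between 116000 and 187800 CPM in every library. Of the libraries, 18 held lymphocyte or keratinocyte markers at over 10 times the median or, in 1 case, over 20% ribosomal RNA, and counts are given without these where they changed. Library B6_5 stood apart with a normalisation factor of 0.417, against 1.01 in the median library. Ribosomal protein genes with their copies held between 0.246% and 1.34% of a library's counts.

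Of the 80 genes, 52 had at least 1 copy row, 97 rows in all, and 33 of these rows bear a -ps name. The other 64 do not, and for 27 genes every copy row lacks a -ps name. Of 94 copies with an alignment to their gene within the limits set, 14 matched the gene's transcript letter for letter over the alignment. The other 3, among them Rpl39-ps, had no such alignment and were added by their -ps name alone. Rps12 and Rps12-ps3, Rpl12 and Gm10275, Rpl27 and Rpl27-ps3, and Rpl5 and Gm15500 each aligned with 0 mismatches. To show how little separates a gene from its copy, 31 coding bases are given below for 4 of the genes whose strain differences shrank most on adding copies and that differ from their main copy within the coding part. The capital marks the differing base, and positions count from the A of the start codon. Sequences are those of GENCODE M21 transcripts on GRCm38, 5′ to 3′ along the gene's strand.
Rpl9 (chr5:65388364-65391444, minus strand): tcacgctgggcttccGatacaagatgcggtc
Rpl9-ps6 (chr19:32465865-32466578), G266A: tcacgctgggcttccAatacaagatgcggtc
Rpl19 (chr11:98026710-98030492, plus strand): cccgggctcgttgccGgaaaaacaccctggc
Rpl19-ps11 (chr8:19492936-19493526), G191A: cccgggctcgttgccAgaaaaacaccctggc
Rps13 (chr7:116331505-116334195, minus strand): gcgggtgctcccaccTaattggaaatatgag
Rps13-ps1 (chr8:87047689-87048226), T411C: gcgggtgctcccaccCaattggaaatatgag
Rpl29 (chr9:106429454-106431568, plus strand): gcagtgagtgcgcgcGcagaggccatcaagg
Gm10709 (chr9:7751725-7752204), G205A: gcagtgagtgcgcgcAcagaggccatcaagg
Rpl9 and Rpl19 differed from these copies at 1 position over 692 and 591 aligned bases. Rps13 differed from Rps13-ps1 at 2 of 522, and Rpl29 from Gm10709 at 4 of 480.

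As deposited, some ribosomal protein genes appeared to differ among strains by up to 6.13 log2 units, and most of the widest differences became much smaller once the copies were added. Rpl17, Rps12, Rpl9, Rpl19, Rpl27 and Rpl12, all structural proteins of their subunit, were the 6 widest, with spans (highest minus lowest strain coefficient) of 3.93 to 6.13. With copies added their spans were 0.40 to 0.82, and all 6 still passed the test among strains (edgeR adjusted p of 0.000836 or less). The deposited row of Rpl9, a large-subunit protein, had 171, 178 and 238 CPM (lowest, median and highest) in Cast. In PWK, the highest of the other strains by median, it had 4.75, 6.47 and 7.48, and no library outside Cast exceeded 8.95 CPM. The row Rpl9-ps6, whose sequence stands above, had a median of 1.31 CPM in Cast (highest 12.1) and between 88.6 and 173 CPM in every other library. Set against the other 7 strains, Cast was higher by 5.15 ± 0.12 log2 units (SE) in the deposited row and by 0.42 ± 0.06 in the sum (adjusted p = 7.6e-09).

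Rpl19 divided the strains in another way. Its deposited row had 141, 153 and 187 CPM in Cast and 114, 129 and 142 in PWK, and at most 11.9 CPM in any library of the other 6 strains. Rps13, a small-subunit protein, went the opposite way, with 9.56, 11.7 and 18.5 CPM in Cast and at least 68.0 CPM in every other library. There Rps13-ps1 had 75.4, 87.1 and 127 CPM, and at most 2.89 CPM outside Cast. The difference of Cast from the others was -2.75 ± 0.09 in the deposited row and 0.32 ± 0.06 in the sum, so that its sign changed. Rpl29 showed the same change of sign, from -1.75 ± 0.07 to 0.19 ± 0.06 once Gm10709 was added (adjusted p = 0.00377). Gm10709 is not named as a pseudogene of Rpl29, so adding -ps rows alone left that difference in place.

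Rpl12 separated PWK and WSB from the rest. Its deposited row had 107, 116 and 146 CPM in WSB and 84.5, 97.8 and 103 in PWK, and at most 18.2 CPM elsewhere. Gm10275, identical over the 634 aligned bases, had 29.0, 34.8 and 39.6 CPM in PWK, at most 5.09 in WSB and at least 84.2 in every other library. The WSB difference was 3.75 ± 0.09 as deposited and -0.31 ± 0.08 in the sum (adjusted p = 0.00107). The PWK difference went from 3.34 ± 0.09 to -0.22 ± 0.08 (adjusted p = 0.027).

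The share of a gene's counts that stood in copy rows gave the same picture for the whole set. Of 52 genes with copies, 21 had strain medians that differed by at least 10 percentage points, and 31 did not. In 7 genes the share was low in both Cast and PWK and high in the other 6 strains. These were Rpl17, Rpl19, Rpl27 and Rps12, with medians of 0.62% to 8.4% against at least 90.7%, and Rpl7 and Rpl23a, with 0.47% to 1.71% against at least 43.0%. Rpl10a was also low in both (0.159% and 0.36%), against 12.2% to 21.1% elsewhere. Rpl9 (0.847% against at least 96.0%) was low in Cast and not in PWK. Copies held most counts in Cast alone for Rps13 (88.4%, against at most 1.02%) and Rpl29 (74.7%, against at most 0.579%). Rpl37 had 48.3% in Cast and 48.2% in PWK against at most 4.81%, and Rpl21 had 19.1% in Cast and 16.9% in NZO against at most 0.882%. In 5 genes copies held over 50% in every strain. Rpl39 is among these, and its copy row, Rpl39-ps, was added by name and not shown to be near-identical. Whether the transcripts came from the gene or the copy, or reads were assigned differently, cannot be told apart, since the counting is not given in the sources used here.

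**Figure D1:**
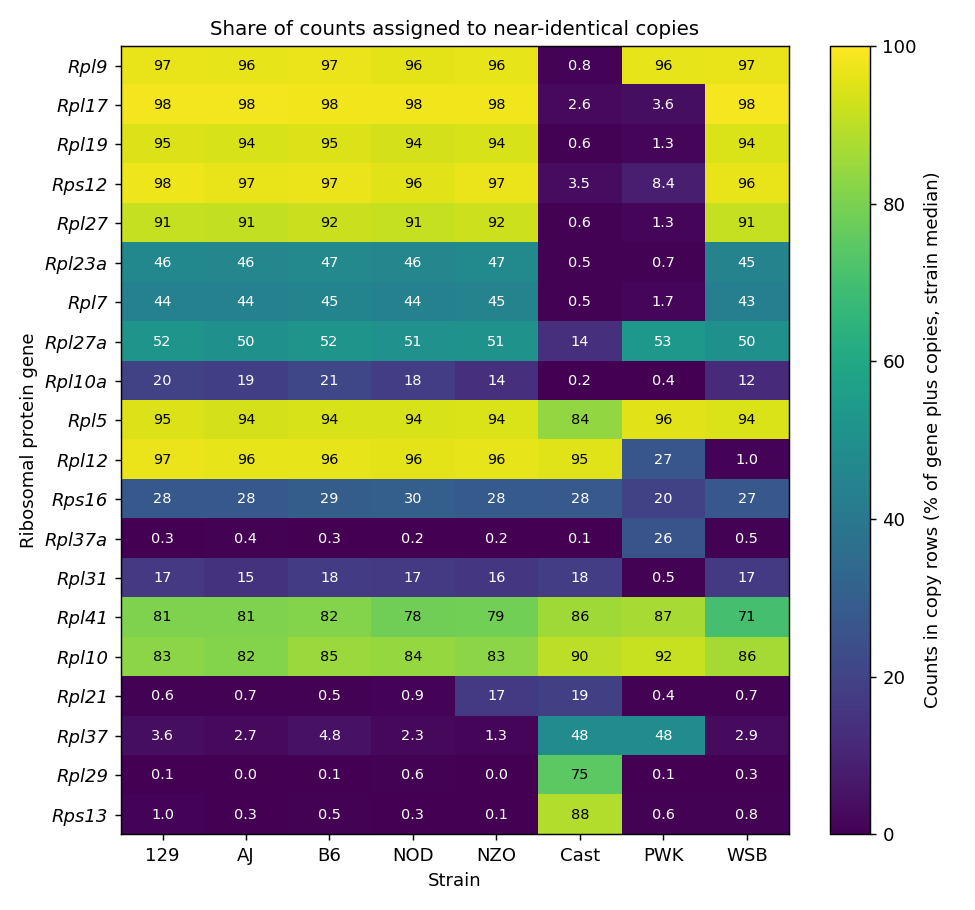
Share of counts in copy rows for 20 of the 21 genes whose strain medians differ by at least 10 percentage points. Rows are genes, columns are strains, and each cell gives the median over 7 or 8 libraries in percent, by color and number. Cast and PWK share the low values of Rpl17, Rpl19, Rpl27 and Rps12, and Rps13 and Rpl29 are high in Cast.

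Among the 8 strains together, 74 of 79 deposited rows passed the test at an adjusted p of 0.05 (edgeR's quasi-likelihood test, Benjamini-Hochberg over all genes), where 85.5% of all genes passed. With -ps rows added 74 of 79 passed (85.4% of all genes), and with all copies 73 of 79 (85.4% of all genes). The sizes differed more than the counts. A span of at least 1 log2 unit was reached by 18 deposited rows (45.7% of all genes), by 11 genes with -ps rows added (45.6%) and by 4 with all copies added (45.5%). The median span was 0.59, 0.52 and 0.48 in turn, against 0.91, 0.91 and 0.90 over all genes tested. These groups differ in level, since 77 members but only 4855 of all genes had a mean of at least 20 CPM. Spans were not compared at matched level, so the lower median is a description only. At a span of 0.5 the counts were 48, 43 and 37 (77.4%, 77.4% and 77.3% of all genes). The genes whose span fell below 1 on adding all copies were the 6 above and Rps13, Rpl5, Rpl29, Rpl35, Rpl41, Rpl27a, Rpl23a and Rpl10. Rpl5, which with 5S ribosomal RNA can bind the p53 regulator MDM2, went from 2.33 to 0.50. For Rpl5, -ps rows alone left a span of 2.17. Rpl41, the shortest of the ribosomal proteins, went from 1.31 to 0.56. Just inside the threshold with all copies stood Rpl22l1 at 1.00, and just outside it Rps15 at 0.95.

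**Figure D2:**
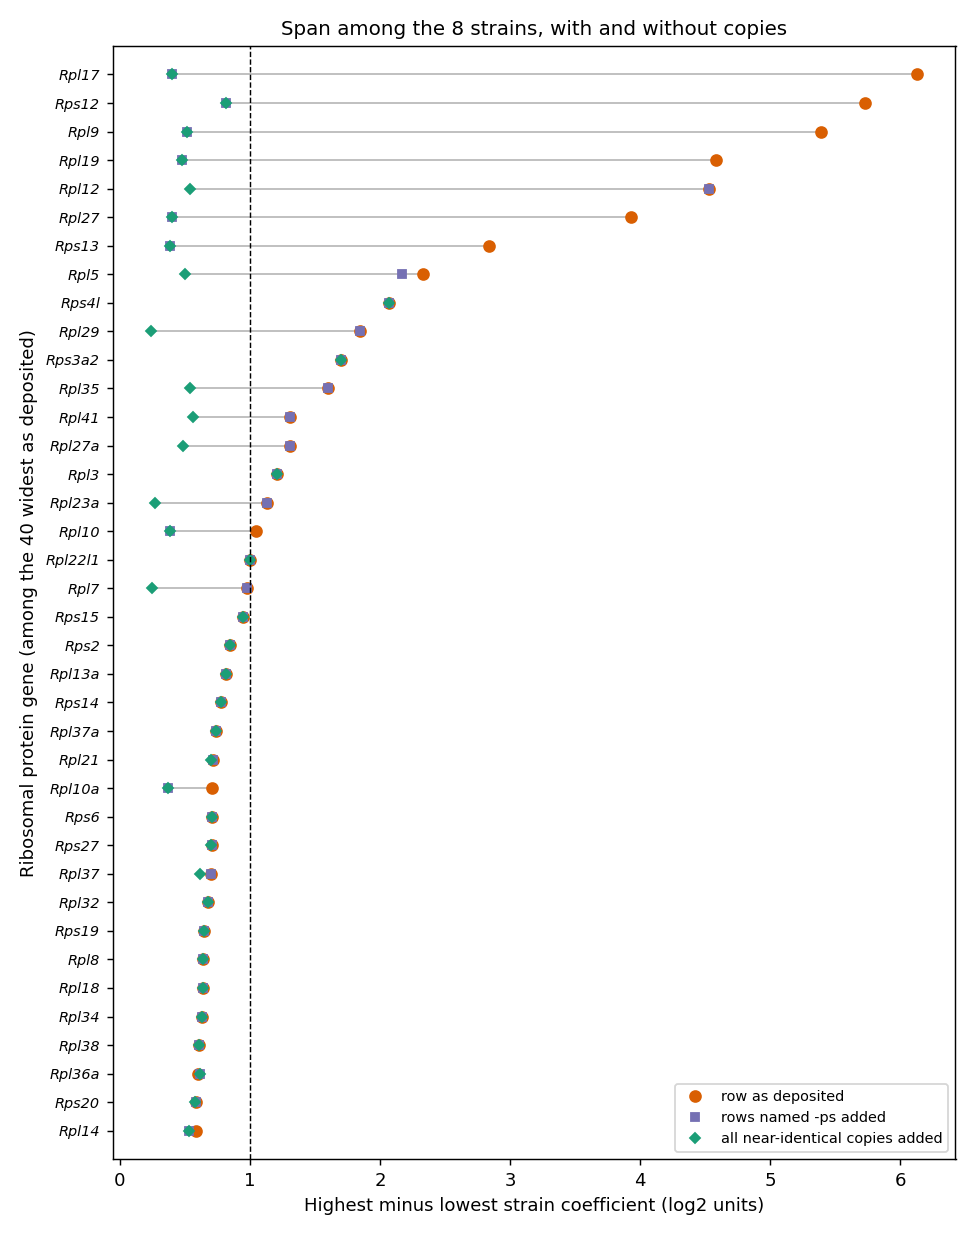
Span among strains (highest minus lowest strain coefficient, log2 units, x axis) of 38 among the 40 genes widest as deposited (y axis). Circles are deposited rows, squares have -ps rows added, diamonds have all near-identical copies added, and the dashed line is at 1. The markers of Rpl17 lie at 6.13 and 0.40, while those of Rps4l, Rps3a2, Rpl3 and Rpl22l1 coincide.

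The 4 genes that stayed at or above 1 have no near-identical copy row outside the 80, and 2 of them are the annotated pseudogenes at low level. Rows among the 80 were never summed with each other. For these 2 pseudogenes a sum with the parent gene was therefore not tried, and adding copies could not change their spans. Rps4l (chr6:148354656-148355598), a retrocopy of Rps4x, had 0.977, 2.16 and 2.71 CPM (lowest, median and highest) in B6, 1.61, 1.80 and 2.29 in 129 and 0.226, 0.502 and 0.787 in PWK. PWK libraries lay below every 129 and B6 library. B6 was higher than the other 7 by 1.06 ± 0.15 and PWK lower, at -1.30 ± 0.19. Without the 18 libraries the B6 difference was 0.43 (adjusted p = 0.454), and only 2 B6 libraries were then left. Rps3a2 (chr14:88123017-88123808) was below 2 CPM everywhere, with 0.588, 0.807 and 1.70 CPM in Cast and 0.172, 0.263 and 0.432 in NZO, and a difference of 1.11 ± 0.22 in Cast. How reads shared with the parent genes were assigned is not known for either.

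Rpl3 and Rpl22l1 are the coding genes among these 4. Rpl3 (chr15:80077791-80091868), a core protein near the peptidyl transferase centre, had 62.6, 88.9 and 157 CPM in Cast, 52.7, 70.2 and 111 in WSB and 35.8, 42.4 and 51.4 in NOD. Every Cast, WSB and AJ library lay above the NOD range, and the ranges of 129, B6, NZO and PWK overlapped it. Cast was higher by 0.78 ± 0.12 (adjusted p = 1.59e-07), WSB by 0.33 ± 0.12, and NOD lower, at -0.60 ± 0.14 (adjusted p = 7.12e-04). Rpl22l1 (chr3:28805436-28807424), the paralog of Rpl22, had 25.3, 32.2 and 63.8 CPM in Cast, 28.3, 33.1 and 37.0 in WSB and 16.2, 18.4 and 24.5 in PWK. Cast was higher by 0.64 ± 0.10, WSB higher by 0.34 ± 0.09 and PWK lower, at -0.51 ± 0.11. In Cast 2 libraries, Cast_5 and Cast_6, had 63.6 and 63.8 CPM and the other 5 at most 36.1.

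Cast was the strain that differed most as a whole: nearly all ribosomal protein genes were higher in it, by a modest amount. With all copies added 68 of 79 were higher and 1 was lower, where 33.8% of all genes were higher and 27.9% lower. The median difference was 0.32 log2 units against 0.04 over all genes, and 76 of 79 were above 0. As deposited 63 were higher and 7 lower (33.8% and 27.9% of all genes), and with -ps rows added 65 and 5 (33.8% and 27.9%). Both subunits took part, with 42 of 46 large-subunit and 26 of 33 small-subunit genes higher and medians of 0.32 and 0.34. Only 11 genes were higher by at least 0.5. Widest after the pseudogene Rps3a2 were Rpl3, Rpl22l1, Rpl13a (0.61 ± 0.07), Rps27 (0.60 ± 0.10), Rps12 (0.57 ± 0.08), Rpl34 and Rps6 (both 0.55 ± 0.06). RPL13A is known outside the ribosome for silencing inflammatory messages, and RPS6 is the classic substrate of the TOR-activated S6 kinase.

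The summed level with all copies was 10780, 11180 and 14150 CPM in Cast, and strain medians elsewhere ran from 9234 in NOD to 9774 in PWK. The lowest Cast library lay above every AJ, NOD, PWK and WSB library, and overlapped single libraries of 129 (highest 11270), B6 (11130) and NZO (13760). NZO_8, at 13760, and B6_5, at 5919, stood far from the rest of their strains. More cells rich in these transcripts and more transcript per cell cannot be told apart in such bulk samples. Beside this, the 5 fibroblast markers summed to 365, 708 and 1264 CPM in Cast against a median of 1454 over all libraries. The 6 adipocyte markers summed to 218, 564 and 1028 CPM against a median of 342. The 4 erythrocyte markers in the table summed to 29.3, 62.4 and 121 CPM in Cast against a median of 117 over all libraries. The part of these cell types in the result was not tested. The 8 hepatocyte markers summed to 65.4, 960 and 7300 CPM in Cast against a median of 817.5 over all libraries. That 7300 was the highest of any library, while the medians of NOD (1133) and PWK (1086) lay above that of Cast. With hepatocyte, lymphocyte and keratinocyte sums as covariates 68 genes were higher in Cast and 2 lower. Without the 18 libraries the counts were again 68 and 1, and without Cast_6, the highest library, 60 and 1.

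**Figure D3:**
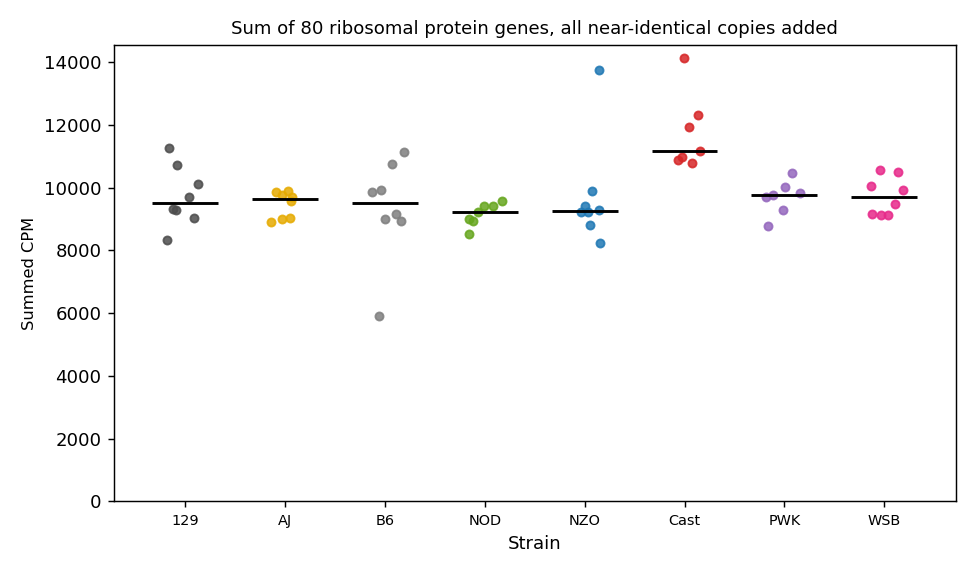
Summed level of the 80 genes with all copies added (y axis, CPM, from 0) in each library by strain (x axis). Points are libraries and bars strain medians. Cast libraries lie between 10780 and 14150 CPM, NZO_8 is the high NZO point at 13760 and B6_5 the low B6 point at 5919.

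Rpl34 had 67.3, 69.9 and 98.7 CPM in Cast, and the highest library elsewhere was a 129 library at 65.5. With all copies added it was the sole member of 79 with every Cast library above all others. That is about the share over all genes (1.28%), so it does not set the members apart. As deposited 7 members met this (1.32% of all genes), among them Rpl5, Rpl7 and Rpl35, whose counts move between gene and copy rows.

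Rps15 went against the rest in Cast. This small-subunit protein (chr10:80292453-80294114, no near-identical copy row) had 80.4, 84.9 and 102 CPM in Cast and 151, 173 and 187 in PWK, and medians of 144 to 154 in the other 6 strains. No Cast library overlapped PWK, AJ, 129, NOD, NZO or WSB. B6_5 (90.7 CPM), the library with the low sum, lay within the Cast range. The Cast difference was -0.78 ± 0.08 (adjusted p = 7.02e-13), and PWK was higher by 0.30 ± 0.07.

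Other strains had fewer differing genes, and several of the counts rested on single libraries. All values here are with all copies added. Cast is part of each mean compared against, so its higher levels lower the differences of the other strains for most genes. In NOD 20 genes were lower and 4 higher (9.74% and 11.8% of all genes), with a median of -0.13 against -0.02 over all genes. The lowest were Rpl3, Rps12 (-0.37) and Rpl37a (-0.36), and the highest Rps4l (0.55), Rpl21 (0.42) and Rpl10a (0.26). Without the 18 libraries 9 genes were lower in NOD. The NOD count of 24 was 15 without NOD_1, 15 without NOD_5 and 14 without NOD_7. PWK had 9 higher and 11 lower (20.6% and 20.3% of all genes), and WSB 6 and 6 (21.3% and 16.9%). The WSB count of 12 was 5 without the 18 libraries. AJ had 4 higher and 7 lower (16.7% and 14.9% of all genes), and its count of 11 was 18 without B6_5. B6 had 1 and 7 (15.0% and 11.1% of all genes), a count that was 0 without the 18 libraries, 17 without B6_1, 4 without B6_5 or B6_7, and 5 without B6_6 or B6_8. NZO had 3 and 5 (14.5% and 12.6% of all genes), a count that was 13 without B6_5, 17 without NZO_8 and 5 without NZO_3, NZO_4, NZO_5 or NZO_7. In 129, 2 were higher and 4 lower (14.2% and 11.2% of all genes).

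**Figure D4:**
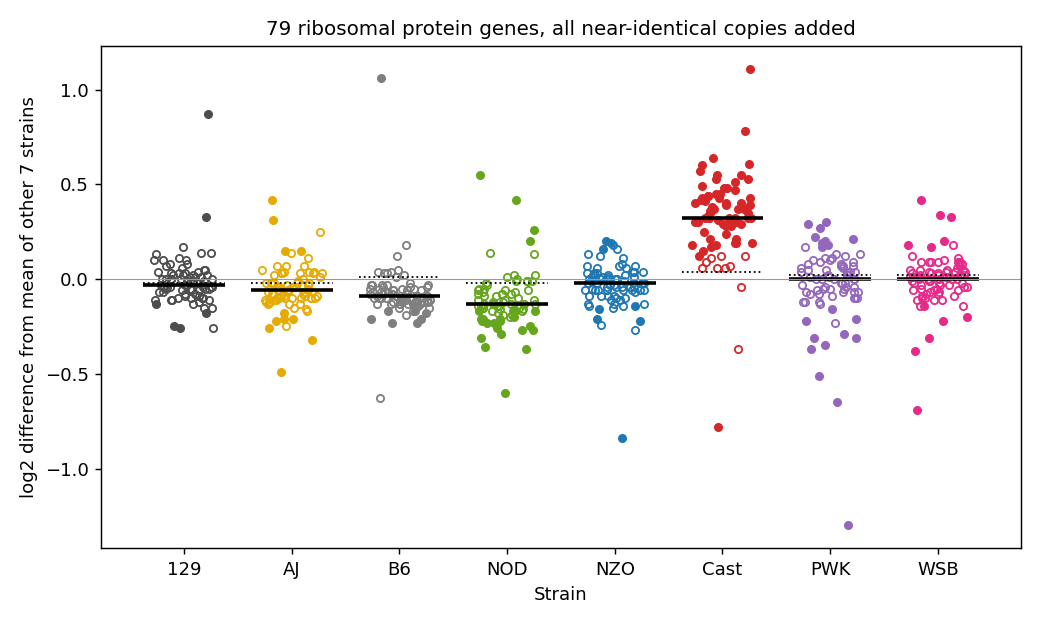
Difference of each strain from the mean of the other 7 (y axis, log2 units) for the 79 tested genes with all copies added, by strain (x axis). Filled points passed the test, open points did not, the solid bar is the median of the 79 genes and the dotted bar that of all genes. Cast has its solid bar at 0.32, and its point at -0.78 is Rps15.

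Single genes in these strains differed by more than their neighbours. Rps2, a small-subunit protein (chr17:24718116-24721929), had 172, 196 and 212 CPM in PWK, below every other library except B6_5 at 183. Its highest median was in 129, at 310, 351 and 404 CPM. The PWK difference was -0.65 ± 0.08 (adjusted p = 3.65e-09), and 129 was higher by 0.33 ± 0.07. Rpl21 (chr5:146832890-146837032), a large-subunit protein, had 72.7, 81.7 and 86.2 CPM in AJ and 75.6, 82.2 and 84.5 in NOD. WSB had 44.6, 49.7 and 55.5, below both ranges. AJ and NOD were each higher by 0.42 ± 0.06, and WSB lower, at -0.38 ± 0.06. The AJ and NOD ranges overlapped, and NZO_8 (75.7 CPM) and Cast_6 (79.4) reached into the AJ range.

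Rps14, a small-subunit protein, was low in AJ, with 107, 117 and 127 CPM against medians of 154 to 193 in the other strains, a difference of -0.49 ± 0.07. Of the other libraries, B6_5 (91.9) lay below the AJ range and the lowest NZO library (127) within it. Rpl13a had 124, 141 and 155 CPM in AJ and 216, 241 and 308 in Cast, and AJ was lower, at -0.32 ± 0.07. Cast is part of the mean that AJ was set against. The 129 libraries, from 126 to 170 CPM, overlapped the AJ range, as did those of NOD, NZO, B6 and WSB.

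Rpl3l (chr17:24727820-24736143), which replaces Rpl3 in mature striated muscle, had 323, 392 and 446 CPM in Cast, 347, 351 and 385 in NOD and 320, 348 and 434 in PWK. The other 5 strains had medians of 288 to 306. B6 was lower, at -0.21 ± 0.05, with B6_5 at 230 CPM and B6_6 at 243. The WSB libraries, from 276 to 319 CPM, overlapped the B6 range. Cast was higher by 0.31 ± 0.05, NOD by 0.20 ± 0.05 and PWK by 0.19 ± 0.05. NOD thus had the lowest Rpl3 and a higher Rpl3l, whereas Cast was higher in both. Per kilobase of transcript Rpl3l reached 234 CPM and Rpl3 46.4, as means over strains. Rpl22 and Rpl7l1 had the narrowest spans, 0.15 and 0.17. Rpl22 did not pass the test among strains (adjusted p = 0.091 by edgeR), while DESeq2 on the table with -ps rows gave an adjusted p of 0.0386. Rpl7l1 passed at an edgeR adjusted p of 0.0497 with -ps rows added, and its call was lost on leaving out any 1 of 44 libraries. Rps27l, a p53 target related to Rps27, had a span of 0.34 with -ps rows added, against 0.71 for Rps27. Spans were 0.46 for Rps4x, 0.62 for Rpl36a and 0.42 for Rpl39 with -ps rows added. Besides Rpl22, the genes not called with all copies included Rpl13, Rpl35a, Rps21 and Rpl7.

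**Figure D5:**
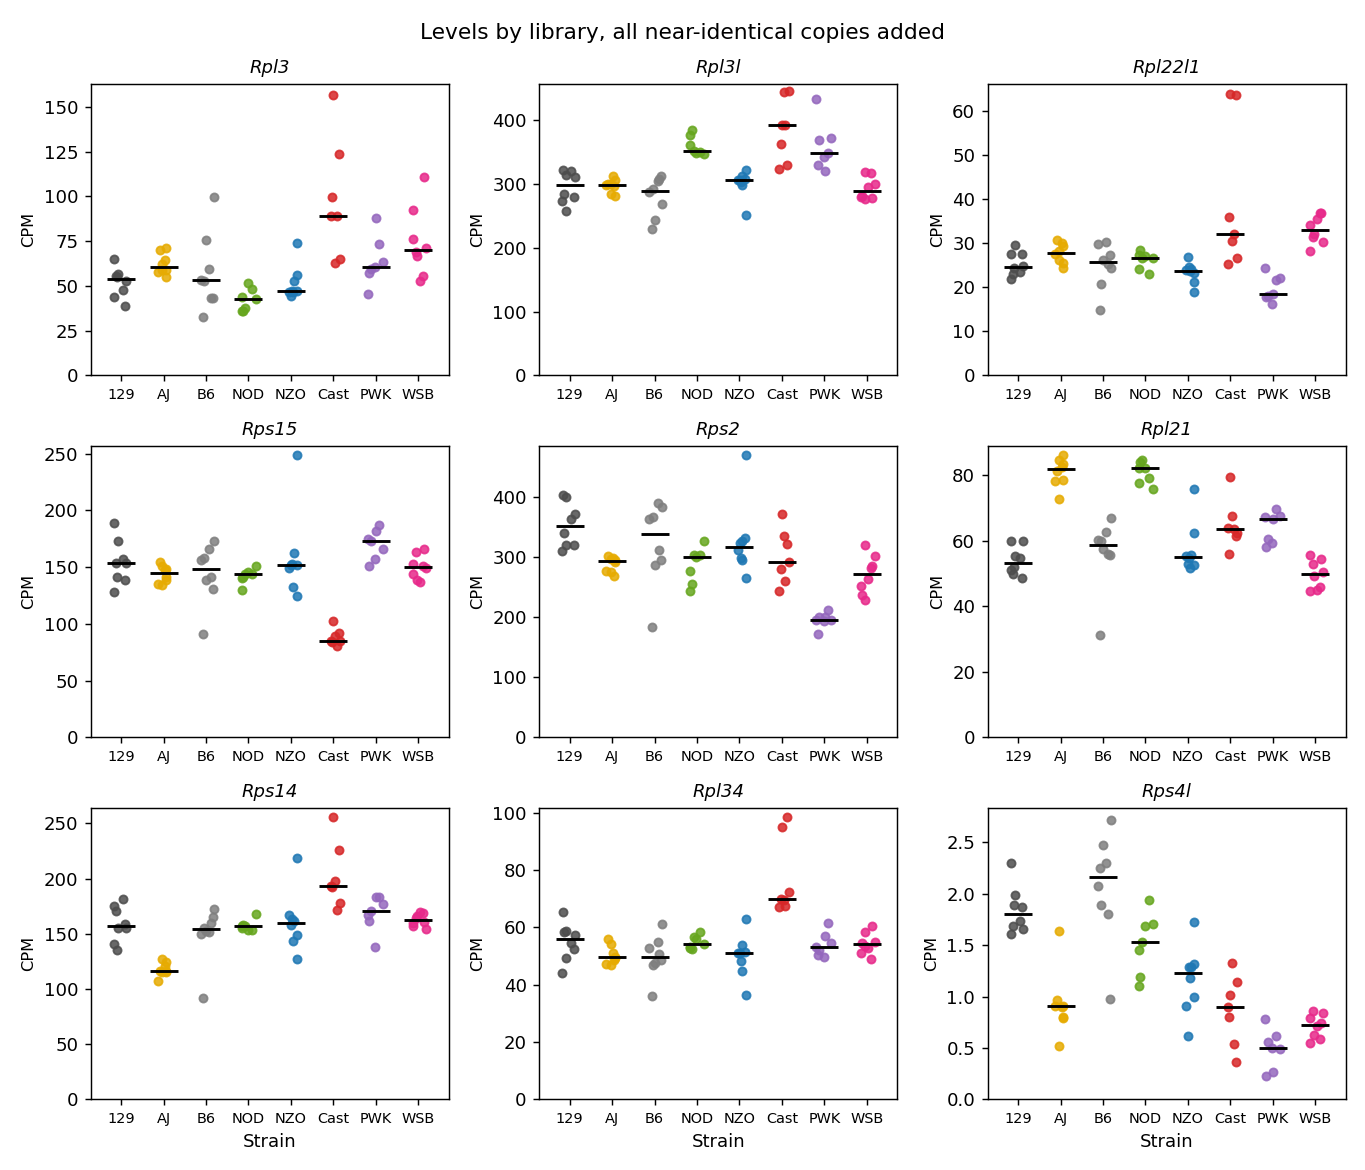
Levels of 9 genes in each library (y axis, CPM, from 0, its own scale per panel) by strain (x axis), all near-identical copies added. Points are libraries and bars strain medians. Rps15 is low in Cast, Rps2 low in PWK, Rpl21 high in AJ and NOD, and Rps14 low in AJ.

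Levels per length were highest, as means over strains with all copies, for Rpl23a at 370 CPM per kilobase, then Rpl13 (295), Rps15 (288), Rps29 (281) and Rpl4 (268). This order depends on the single annotated transcript length taken for each gene. For Rps24 that was 1613 bases, although another of its transcripts has 468, and for Rps15a it was 5130. Which transcripts the muscle makes was not tested. The lowest strain mean of Rps15 was 177 CPM per kilobase, in Cast. Rps4l, at 1.27, and Rps3a2, at 0.646, were lowest of the 79.

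Within strains the genes rose and fell together from library to library. Deviations from the strain mean of log2(CPM + 1) had a median pairwise correlation of 0.85 over the 77 members with a mean of at least 20 CPM. For all pairs of the 4855 genes of that level it was 0.04. These are descriptions over 61 libraries that share preparation, depth and the scaling of each library, and genes are not independent. The libraries include NZO_8 and B6_5, whose sums stood far from the rest of their strains, and the correlation was not computed without them. Rpl3l (median r with other members 0.36), Rpl7l1 (0.37) and Rpl22l1 (0.47) followed the others least, and the other 74 were above 0.5.

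RefSeq promoter sequences (GRCm38.p6) were matched by symbol for 59 members, and the first base after the annotated start was read for a C followed by at least 4 bases that are each C or T. This holds for 12 of the 59 members (20.3%) and for 3.0% of the 27025 symbols in the table, on the gene's strand. Anywhere from 5 bases before to 10 after the start it holds for 47.5% and 21.2%. The 3 members with the longest runs at the start are shown with 10 bases before it and 20 from it, the run in capitals.
Rpl15 (window chr14:18270937-18271236, minus strand): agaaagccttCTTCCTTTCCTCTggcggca
Rpl35 (window chr2:39005082-39005381, minus strand): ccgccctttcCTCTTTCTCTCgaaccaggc
Rps10 (window chr17:27635195-27635494, minus strand): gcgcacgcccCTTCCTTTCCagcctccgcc
A match describes these letters only.

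Genes around the ribosome were read from 4 lists, as deposited rows with no copies added. In Cast 33.8% of all deposited rows were higher and 27.9% lower. Of 9 tested rows listed as ribosomal proteins outside the naming rule, 8 were higher and 0 lower. These 9 include Rpl37rt and Rps27rt, already added above to Rpl37 and Rps27 as copies. Rpl37rt was among the 8 and Rps27rt was not. Of 20 translation factors and related messages with a TOP tract, 16 were higher and 0 lower. Of 37 ribosome biogenesis factors 28 were higher and 6 lower. Their medians were 0.34, 0.33 and 0.33, against 0.04 over all genes. Of 18 genes of the TOR pathway and its TOP regulators 9 were higher and 7 lower (median 0.08). Without the 18 libraries the counts were 8 and 0, 16 and 0, 28 and 5, and 9 and 7.

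Among list members as deposited, Fau, which encodes a fusion of a ubiquitin-like protein with RPS30, was higher in Cast by 2.07 ± 0.08. It had 65.9, 69.2 and 105 CPM in Cast and 47.9, 51.5 and 60.3 in PWK, and at most 21.3 elsewhere, in the strain pattern of Rpl19. Rpl37rt, counted above as a copy of Rpl37, was higher in Cast by 3.89 ± 0.23 and in PWK by 3.69 ± 0.23. Sbds, a factor of large-subunit maturation, was higher by 1.36 ± 0.12 with 1 Cast library at 102 CPM against a Cast median of 26.6. Rrs1 (1.10 ± 0.11) was also higher, and Dkc1 (-0.56 ± 0.10) and Ebna1bp2 (-0.47 ± 0.05) were lower. Eef1g (0.58 ± 0.05) and Eif3f (0.53 ± 0.05) led the translation factors. Eef1g had 54.5, 60.8 and 81.8 CPM in PWK against at least 217 in every other library. PWK is among the strains averaged for the comparison, so its low level widens the Eef1g difference of Cast. In the TOR list Eif4ebp1, an inhibitor of cap-dependent translation, was higher by 1.99 ± 0.19, with Cast values from 16.6 to 162 CPM around a median of 25.8. Tsc1 was higher by 0.85 ± 0.07, and Deptor (-0.78 ± 0.14) and Eif4e (-0.56 ± 0.08) were lower.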

How the data were processed

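Polyadenylated RNA of skeletal muscle was sequenced, per the labels' protocols. GRCm38 and DESeq2 are named in the submitters' processing notes. Which aligner and counting tool were used, and how reads matching several copies were treated, is not given in the sources used here. The deposited table holds expected counts (estimated, unscaled, 80.4% of values whole) while a second table deposited by the authors, on a log2 scale after variance stabilisation, served in 1 alternative. The design had assumed whole counts, so the expected counts were rounded. Members and lists were chosen with earlier results of these data known.

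Copies were found with BLAST 2.17.0 in GENCODE M21 transcripts (identity of 95% or more, alignments of 200 bases or more that cover 50% of the shorter transcript and 50% of the copy), each assigned to its best member. Genes were fitted with edgeR 4.0.16 (R 4.3.3) by the quasi-likelihood F test after filterByExpr and TMM, with strain as the single factor over 61 libraries (53 residual degrees of freedom, 16682 deposited rows tested). Contrasts compared each strain with the equally weighted mean of the other 7. Benjamini-Hochberg adjustment ran over all genes, with calls at 0.05. SE is the standard error of a log2 difference, and CPM uses TMM-adjusted library sizes. Precision is given by the spread between libraries, with library totals of 17.1 M (megacounts) or more. Scripts were tested on simulated data. Named genes were the 20 widest as deposited, the 12 widest called with -ps rows added, per strain up to 3 called highest and 3 called lowest, paralogs, the 5 highest per length and up to 2 per direction of each other list. Genes named for another reason, such as Rpl34, were chosen after their values were seen. A few members are not reported here by name. Alternatives were DESeq2 1.42.0 (test or size factors), limma 3.58.1, other filters (none, or 1 CPM in at least 7 libraries), the replicate number as a block, the GT20 number or marker sums as covariates, and each library left out. Leaving out 18 libraries, and every alternative for the table with all copies, were added after seeing the data.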

Additional observations from a re-analysis of the deposited data

Results flagged for a closer look

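A library was set apart where its gap to the nearest library of its strain was large for the strain's range (Dixon's test, for the summed level and the genes whose levels by strain are given above). Of 136 strain groups 16 held such a library. Chance gives about 1 in 20 for a single group. The groups share the same libraries and genes that rise and fall together, so the count of 16 was not set against chance. NZO_8 was the highest NZO library in 9 of the 16 groups. Its values in CPM were 13760 for the sum, 73.95 for Rpl3, 248.6 for Rps15, 469.9 for Rps2, 264.8 for Rpl13a, 218.5 for Rps14 and 75.73 for Rpl21, all with copies added. In deposited rows it had 116.6 for Rps13 and 124.9 for Rpl29. B6_5 was the lowest B6 library, with 5919 for the sum, 91.92 for Rps14 and 31.22 for Rpl21. Cast_6 was highest for Rpl13a (307.8 CPM) and NOD_2 for Rps14 (167.8 CPM). AJ_5 was highest for Rps4l (1.635 CPM) and NZO_1 lowest for Rpl3l (251.8 CPM). Left-out counts for NZO_8, B6_5 and Cast_6 stand beside the results above.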

How the results depend on the processing

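Counts of genes called in Cast or among the 8 strains stayed within 1.5 times under every alternative run. The cause of the changes below was not tested, except that fewer libraries were left in some. Leaving out 18 libraries gave, as deposited, 6 genes in B6 (from 19), 18 in NOD (from 31) and 14 in WSB (from 23). With -ps rows added it gave 1 (from 12), 17 (from 28) and 9 (from 16), and with all copies 0, 13 and 5 (from 8, 24 and 12). A threshold of 0.5 on the span gave 48, 43 and 37 genes. Adding all copies in place of -ps rows gave 4 spans of at least 1 (from 11), and 6 genes called in 129 (from 13), 11 in AJ (from 17) and 8 in NZO (from 14). It also changed the sign of single differences. Some still passed the edgeR test: Rpl12 at 0.32 in Cast, -0.22 in PWK and -0.31 in WSB, Rpl29 at 0.19 in Cast and Rpl7 at -0.16 in PWK. Others no longer passed, so their new sign carries no call. These were Rpl12 at 0.14 in 129, 0.11 in AJ and 0.13 in NZO, and Rpl37 at -0.06 in NZO. Rpl29 at -0.06 in AJ, -0.05 in B6 and -0.02 in NZO did not pass either. Leaving out each library in turn gave 19 to 39 genes in NOD as deposited. With -ps rows added it gave 7 to 16 in 129 (8 without 129_1, 7 without 129_7), 9 to 21 in B6 (21 without B6_1) and 17 to 37 in NOD (18 without NOD_5, 17 without NOD_7). With all copies it gave 8 to 18 in AJ, 4 to 17 in B6, 14 to 34 in NOD and 5 to 17 in NZO. Over 186 same-numbered pairs of libraries the median correlation of deviations was 0.01, from -0.55 to 0.71, with 78 pairs over 0.1. Such a median cannot show whether same-numbered libraries were handled together, and the labels do not say. With a replicate block 69 genes were higher and 1 lower in Cast with all copies. Low genes such as Rps4l and Rps3a2 rest on few counts.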
